A study of Mus musculus with 4 samples.

Results

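The BCL2 family and its caspases were examined in the testis of mice lacking Tslc1, a gene named Cadm1 in current annotation that encodes an adhesion molecule of the immunoglobulin superfamily. The set holds 9 genes: the survival members Bcl2, Bcl2l1 and Bcl2l2, the death members Bax, Bak1, Bad and Bid, and the caspases Casp6 and Casp9. A probe set was taken when the platform annotation named exactly 1 gene and that gene was on the list. This gave 15 probe sets for 8 of the 9 genes, of 12422 probe sets other than controls on each array and 8251 genes named there by a probe set of their own. No probe set used here was named for Bax, which was not analysed. RNA of whole testis was hybridised to 4 Affymetrix arrays of the Mouse Genome U74A version 2 design, 2 for Tslc1-/- and 2 for Tslc1+/+ males of strain C57BL/6J at 16 weeks of age. The labels do not give the deleted part of Tslc1, nor whether each array holds a different animal or a pool, so p-values reflect the spread from array to array, possibly a technical one.

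In the mitochondrial pathway of apoptosis, Bax and Bak1 open pores in the outer mitochondrial membrane, and Bcl2, Bcl2l1 and Bcl2l2 hold them in check. BH3-only proteins such as Bad and Bid relay death signals, Bad by occupying the survival proteins and Bid after cleavage by a caspase. Cytochrome c that leaves the mitochondrion assembles the apoptosome with Apaf1 and Casp9, the initiator caspase, which activates executioner caspases, among which Casp6 is usually counted. Germ cells of the testis die by apoptosis in normal spermatogenesis, and in mice the loss of Bcl2l2 or of Bax disrupts it.

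Values are probe set signals in intensity units, scaled by the authors so that arrays share 1 overall brightness. Changes are log2 differences, Tslc1-/- minus Tslc1+/+, of signals raised by 50, so that changes of dim probe sets come out too small. A probe set was tested where its signal, averaged over the 4 arrays, reached 200, which held for 7975. Of the 15 probe sets here 10 were tested, for 6 genes. The other 5, including the only ones for Bid and Casp6, were dim and are marked as such. A signal depends on the probes as well as on the transcript, so signals of different probe sets are not compared as abundances.

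Both tested Cadm1 probe sets separated the genotypes, in the direction of their labels, though where they lie relative to the deletion is not known and the names of both end in a suffix for possible cross-hybridisation. One read 443.5 and 444.9 on the Tslc1-/- arrays, against 3960 and 3925.2 on the Tslc1+/+ arrays, and the other read 775.9 and 604.5 on the Tslc1-/- arrays, against 3449.5 and 4027.9 on the Tslc1+/+ arrays. Log2 signals correlated across probe sets with r = 0.941 between the Tslc1-/- arrays, 0.938 between the Tslc1+/+ arrays, and 0.930 to 0.941 between arrays of different genotype. These are correlations across probe sets, which are not independent replicates. Testis markers were read on the brightest probe set of each gene. A mean signal of 200 was reached by 30 of 31 markers of spermatocytes, spermatids, Sertoli cells and Leydig cells. It was reached by 4 of 5 of spermatogonia, among them Stra8 only through its Tslc1-/- signals, with a Tslc1+/+ mean of 127.3. Of all probe sets but controls, 7975 of 12422 reached it.

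None of the 10 tested probe sets passed the test for a difference between Tslc1-/- and Tslc1+/+ testis (limma, Benjamini-Hochberg adjusted p from 0.345 to 0.998), where 1.08% of all tested probe sets passed (86 of 7975). The clearest separation was that of Bcl2l1, which was brighter on both Tslc1-/- arrays but did not pass the test. At an unadjusted p under 0.05 stood 1 of the 10, against 10% of all tested probe sets. The changes had a median of 0.008 over the 10 tested probe sets and of 0.017 over all 7975. Their median size without regard to sign was 0.113, against 0.222 over all tested. These 2 medians are not matched for brightness. Over all tested probe sets the median size was 0.377 at signals of 200 to 500, 0.234 from 500 to 1000, 0.174 from 1000 to 2000 and 0.149 from 2000 to 5000.

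**Figure D1:**
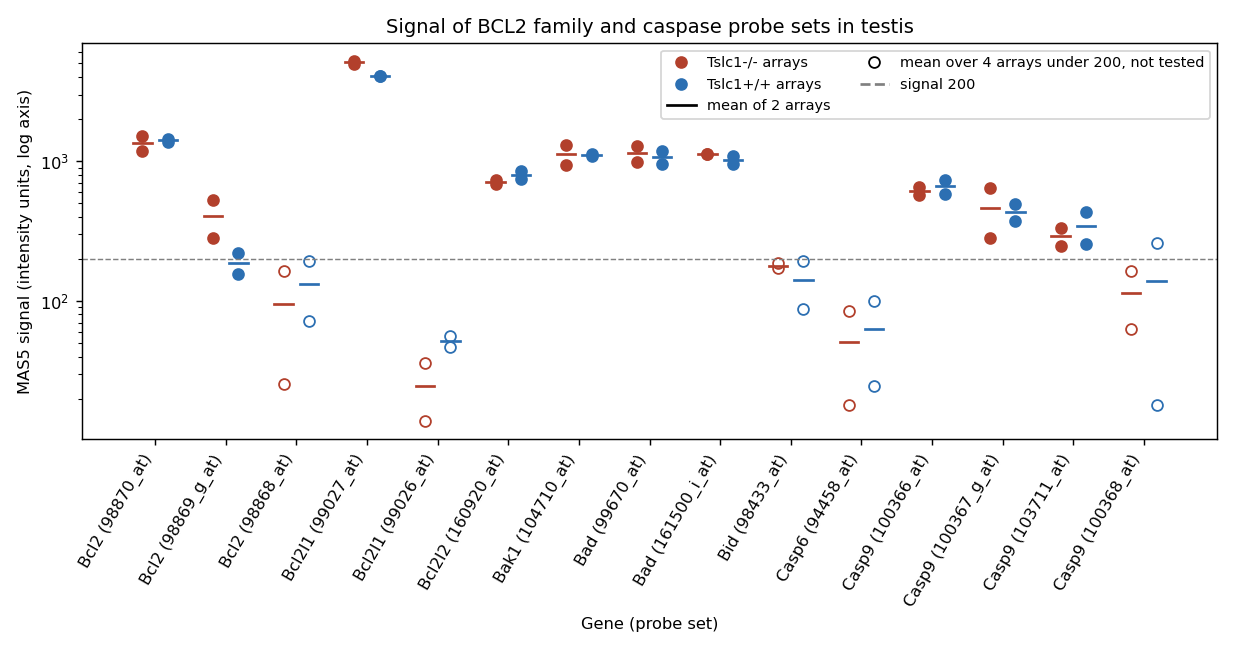
MAS5 signal (intensity units, log axis) of each BCL2 family and caspase probe set on the 2 Tslc1-/- arrays (left of each pair) and the 2 Tslc1+/+ arrays (right), with a bar at the mean of 2 arrays. Open points are the 5 probe sets with a mean under 200, and Bcl2l1 on 99027_at, at 4052.2 to 5178.2, is the brightest of the 15.

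Among the survival members, Bcl2l1 encodes Bcl-x, whose long form blocks Bax and Bak1. Its bright probe set, 99027_at, read 5178.2 and 4998.4 in Tslc1-/- testis, against 4052.2 and 4075.5 in Tslc1+/+ testis. Both Tslc1-/- arrays lay above both Tslc1+/+ arrays, and the arrays of each genotype lay close together. The log2 change was 0.32 (standard error 0.12), a 1.25-fold ratio with a 95% interval from 1.05 to 1.49 before any adjustment for the number of probe sets. It did not pass over all tested probe sets (limma, adjusted p = 0.345). In RNA of whole testis, a change in the share of cells that carry a transcript and a change in its level per cell cannot be told apart. The second Bcl2l1 probe set, 99026_at, was dim, at 35.7 and 13.8 in Tslc1-/- testis and 56.4 and 46.9 in Tslc1+/+ testis. There the Tslc1-/- arrays lay below the Tslc1+/+ arrays, and the changes of the 2 probe sets had opposite signs. Its log2 change of -0.46 came from the fit of all 12422 probe sets, of which 0.467% were called (limma, adjusted p = 0.79).

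The founding member of the family, Bcl2, had 3 probe sets of very different brightness. The brightest, 98870_at, read 1510.6 and 1185.9 in Tslc1-/- testis, against 1431.7 and 1382 in Tslc1+/+ testis. The Tslc1-/- arrays held both the highest and the lowest value, and the Tslc1+/+ values lay between them. The log2 change was -0.07, with a 95% interval from -0.49 to 0.36 (limma, adjusted p = 0.942). On 98869_g_at, whose suffix marks possible cross-hybridisation, Bcl2 read 529.6 and 279.8 in Tslc1-/- testis, against 219.1 and 156.9 in Tslc1+/+ testis. This was the largest change among the 10, at 0.89 on the log2 scale, and its interval from -0.29 to 2.07 included 0 (limma, adjusted p = 0.651). The probe set reached the filter only through its Tslc1-/- signals, since the Tslc1+/+ mean was 188. The third Bcl2 probe set, 98868_at, was dim and scattered, at 164.1 and 25.4 in Tslc1-/- testis and 71.4 and 193.2 in Tslc1+/+ testis, with overlapping genotypes and a log2 change of -0.44 (limma, all probe sets, adjusted p = 0.908). The 3 Bcl2 probe sets thus gave changes of both signs, none of which passed.

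The relative that encodes Bcl-w, Bcl2l2, was measured on 1 probe set, 160920_at. It read 689.4 and 731.5 in Tslc1-/- testis, against 849.7 and 740.7 in Tslc1+/+ testis. The genotypes did not overlap, but the gap between the nearest arrays was smaller than the distance between the Tslc1+/+ arrays. The log2 change was -0.15 (standard error 0.24; limma, adjusted p = 0.88). Without 98869_g_at, which was tested only through its Tslc1-/- signals, the 3 other tested probe sets of survival members had 1 positive and 2 negative changes and a median of -0.07; with it the median of the 4 was 0.13.

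The pore-forming death member of this set that was measured, Bak1, read 1307.8 and 946.3 in Tslc1-/- testis, against 1118 and 1093 in Tslc1+/+ testis (probe set 104710_at). As for Bcl2 on 98870_at, the Tslc1-/- arrays lay on either side of the Tslc1+/+ arrays. The means were 1127 ± 256 in Tslc1-/- testis and 1106 ± 17.7 in Tslc1+/+ testis (SD, n = 2 each), a log2 change of 0.01 with a 95% interval from -0.47 to 0.49 (limma, adjusted p = 0.993). That change was slightly negative when arrays were set to equal medians (-0.010) or quantile normalized (-0.022).

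The BH3-only member Bad, which binds and neutralises Bcl2 and Bcl2l1 unless phosphorylated, had 2 tested probe sets of similar brightness. The first, 99670_at, read 1282.8 and 993.7 in Tslc1-/- testis, against 951.3 and 1179.7 in Tslc1+/+ testis. Its genotypes overlapped, and the log2 change was 0.09 (standard error 0.22; limma, adjusted p = 0.937). The second, 161500_i_at, carries a suffix for probes that may be less specific. It read 1117.9 and 1130.2 in Tslc1-/- testis, against 1086.4 and 962 in Tslc1+/+ testis. Both Tslc1-/- arrays were higher there, by 0.13 ± 0.20 on the log2 scale (SE; limma, adjusted p = 0.873). Bid, which links death receptors to mitochondria, was dim on its only probe set, 98433_at, at 171.8 and 185.4 in Tslc1-/- testis and 87.9 and 192.2 in Tslc1+/+ testis. Its log2 change of 0.32 had a 95% interval from -1.01 to 1.65 (limma, all probe sets, adjusted p = 0.927). Without the lower Tslc1+/+ array, replicate 1, the change was -0.084.

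Of the caspases, Casp9 had 4 probe sets, 3 of them tested. The brightest, 100366_at, read 569.9 and 656.3 in Tslc1-/- testis, against 738.1 and 584.5 in Tslc1+/+ testis, with overlapping genotypes and a log2 change of -0.10 (limma, adjusted p = 0.943). On 100367_g_at, which carries a cross-hybridisation suffix, Casp9 read 283.8 and 639.7 in Tslc1-/- testis, against 370.2 and 493 in Tslc1+/+ testis. The Tslc1-/- arrays again lay on either side, 2.25-fold apart, and the change of 0.01 (limma, adjusted p = 0.998) turned to -0.0063 with quantile normalization and -0.013 with equal medians. The third, 103711_at, read 246.1 and 332.8 in Tslc1-/- testis, against 429.4 and 257.2 in Tslc1+/+ testis, a log2 difference of -0.19 ± 0.47 (SE; limma, adjusted p = 0.937). The dim Casp9 probe set, 100368_at, read 62.9 and 163.7 in Tslc1-/- testis and 258.8 and 17.9 in Tslc1+/+ testis, so that its Tslc1+/+ arrays alone spanned its whole range. Casp6, which cleaves nuclear lamins during cell death, was dim on its only probe set, 94458_at, at 84.1 and 18 in Tslc1-/- testis and 24.7 and 100.3 in Tslc1+/+ testis. The log2 change was -0.15 with a 95% interval from -1.32 to 1.02 (limma, all probe sets, adjusted p = 0.967), which as a ratio runs from 0.400 to 2.03.

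**Figure D2:**
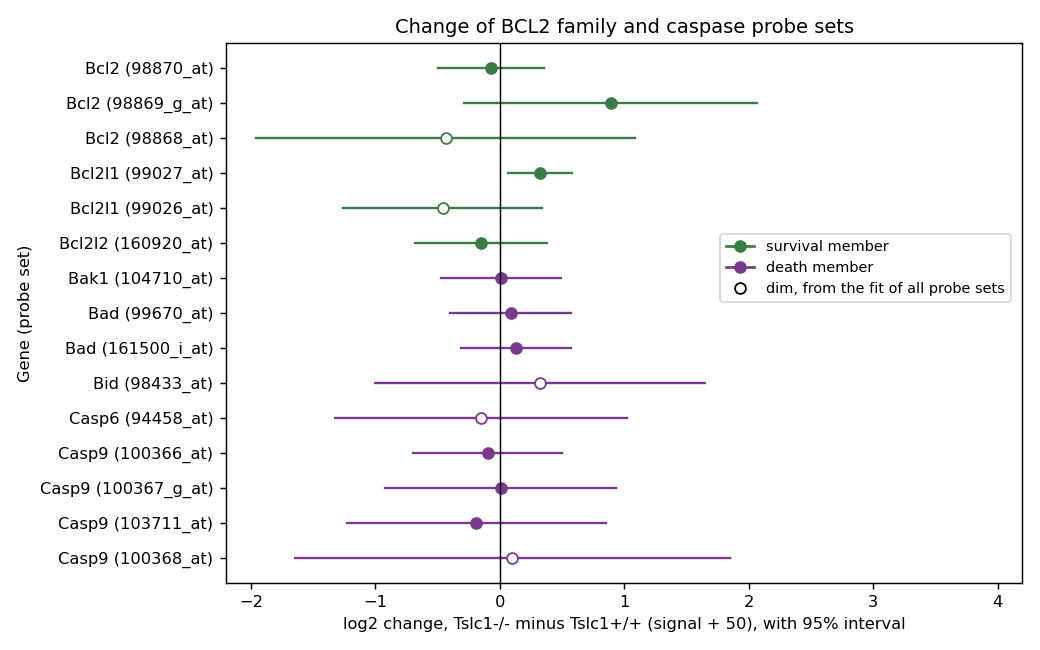
Log2 change, Tslc1-/- minus Tslc1+/+, of each probe set (points) with its 95% limma interval (lines), survival members in green and death members, caspases included, in purple. The interval of Bcl2l1 on 99027_at, the narrowest, is the 1 that leaves out 0, and open points mark dim probe sets.

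Changes of both signs stood among survival and among death members. The 6 tested probe sets of death members (Bak1, Bad and Casp9) had 4 positive and 2 negative changes with a median of 0.008. The median of the survival members turned sign with 1 probe set, as given above, so no order of the medians is read. Genotypes did not overlap on 4 of the 10 tested probe sets (Bcl2l1, Bcl2l2, and 1 each of Bcl2 and Bad), the same share as the 40% of all tested probe sets. On 3 of the 10 both Tslc1-/- arrays were higher, against 21.5% of all tested, and 1 of the 3 was Bcl2 on 98869_g_at, whose Tslc1-/- signals took it past the filter. Of the 9 others, 3 did not overlap and 2 of these were higher. Over all tested probe sets, the same exclusion left 7310, of which 2826 did not overlap and 1524 of these were higher. On another 3 of the 10, the Tslc1-/- arrays held both the highest and the lowest value. Tslc1-/- replicate 1 was the highest array for 5 of the 10 probe sets and the lowest for 4, and Tslc1+/+ replicate 2 was the highest for none.

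The precision of a change differed between members with their brightness. The intervals are not adjusted for the number of probe sets. To pass the test a change had to exceed these distances by more, as Bcl2l1 did not pass though its interval leaves out 0. The distance from a change to either end of its 95% interval had a median of 1.15 on the log2 scale over all tested probe sets with a signal of 200 to 500, of 0.62 from 500 to 1000, of 0.44 from 1000 to 2000 and of 0.33 from 2000 to 5000. Those ranges held 3, 2, 4 and 1 of the tested probe sets of the family. The interval lay within 1.5-fold in either direction for 5 of the 10, those of Bcl2l1, Bak1, both Bad probe sets and the brightest Bcl2 probe set. It lay within 2-fold for 8, and reached past 2-fold for Bcl2 on 98869_g_at and Casp9 on 103711_at. For 7 of the 10, arrays of a genotype differed by less than the fitted trend for their signal: the within-genotype SD of Bcl2l1 on the log2 scale was 0.026, against 0.128 for the trend. The moderated SD behind the test of Bcl2l1 lay near the trend, which gave its standard error of 0.12.

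**Figure D3:**
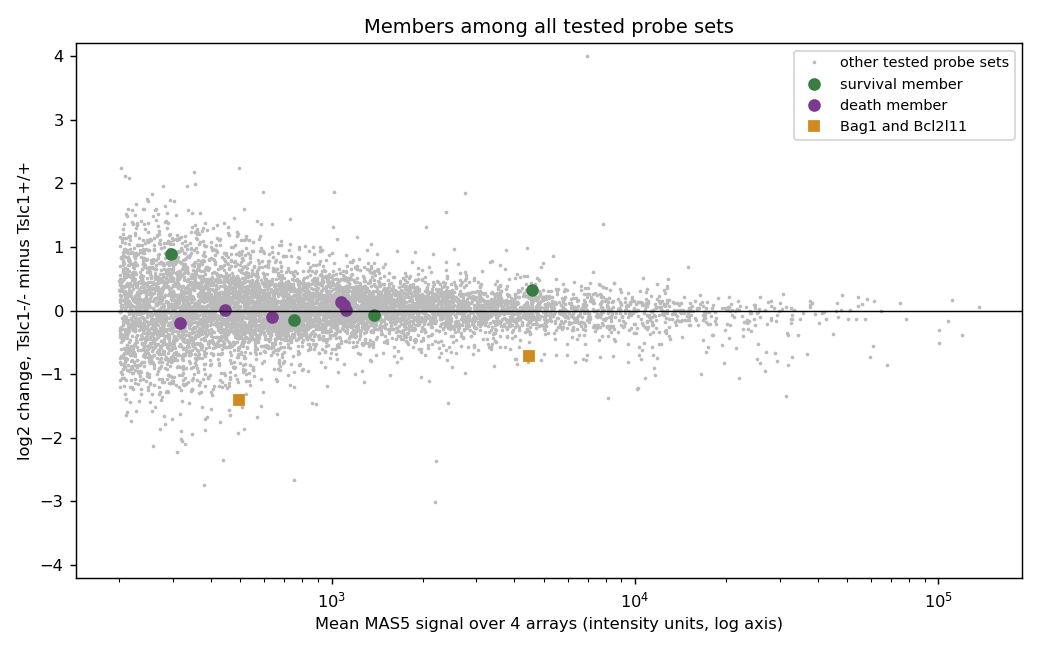
Log2 change, Tslc1-/- minus Tslc1+/+, against the mean signal over 4 arrays (log axis) for all 7975 tested probe sets (grey), with the 4 survival and 6 death member probe sets and those of Bag1 and Bcl2l11 marked. The members lie within the grey cloud at their brightness, from -0.19 to 0.89.

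Other genes of the death machinery were read from 6 lists, with 62 genes on 84 probe sets. Of these, 57 probe sets of 44 genes were tested and none passed, against 1.08% of all tested probe sets. Changes were positive for 29 and negative for 28, with a median of 0.009. Leaving out 2 probe sets that reached the signal of 200 in 1 genotype only, the median was -0.003. Genotypes did not overlap on 16 of the 57, where 40% of all tested probe sets did not. At an unadjusted p under 0.05 stood 2 of the 57, Bag1 and Bcl2l11, where 10% of all tested probe sets did.

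Both of these belong to the list of other BCL2 relatives and binders, of which 13 probe sets of 10 genes were tested, with 5 positive and 8 negative changes and a median of -0.02. Bag1, a co-chaperone of Hsp70 that binds Bcl2, was the brightest and had the smallest p of the list. It read 2891.9 and 3934.1 in Tslc1-/- testis, against 5652 and 5440.2 in Tslc1+/+ testis, both Tslc1-/- arrays being lower. The log2 change was -0.71 (standard error 0.15), a ratio of 0.612 with an interval from 0.484 to 0.773, and it did not pass (limma, adjusted p = 0.0654). Bag1 did pass when suffixed probe sets were left out (limma, adjusted p = 0.0397), with the replicate number as a block (0.00120) and without Tslc1-/- replicate 2 (0.0481). With each other array left out its adjusted p was 0.232 to 0.317 (limma), and without the intensity trend 0.582. Of 14 markers of round and elongating spermatids, 6 were called lower in Tslc1-/- testis and none higher, where 0.84% of all tested probe sets were called lower. The 6 all had mean signals above 5000, where calls in either direction were more frequent, at 7.28% (52 of 714). The summed signal of 8 elongating spermatid markers was 313495 and 293886 in Tslc1-/- testis, against 427365 and 439918 in Tslc1+/+ testis, with 4 of the 8 called lower and none with a mean signal under 200. The same sum over 6 round spermatid markers was 91541 and 89937 in Tslc1-/- testis, against 125106 and 131809 in Tslc1+/+ testis, with 2 called lower. These sums are carried by a few very bright probe sets such as those of Tnp2 and Gsg1, and the changes of Acr and Prm2, at 0.15 and 0.18 on the log2 scale, were positive and did not pass (limma, adjusted p = 0.673 and 0.955). The Prm2 probe set lay near the signal filter, at 396.3 and 192.9 in Tslc1-/- testis and 364.9 and 152.5 in Tslc1+/+ testis, so its change says little. Of 6 spermatocyte markers, 1 was called lower, Pgk2 (log2 change -0.78, limma, adjusted p = 0.00495), and the spermatocyte sums overlapped between genotypes. Sums were also lower on both Tslc1-/- arrays for some other cell types. Those of endothelium markers were 672 and 712 in Tslc1-/- testis, against 1807 and 1365 in Tslc1+/+ testis. Of these 4 markers, 2 were below the signal filter, 0 were called, and the change of Tek was positive. Sums of Leydig cell markers were 4877 and 5650 in Tslc1-/- testis, against 6925 and 7081 in Tslc1+/+ testis, with 0 called. They are carried mostly by Cyp17a1, at 2916.5 and 3733.3 in Tslc1-/- testis, against 4673.3 and 5229.1 in Tslc1+/+ testis. Changes were also negative for Cyp11a1 and Hsd3b1, at -0.25 and -0.56, but positive for Star and Insl3, at 0.42 and 0.77. Sertoli cell sums overlapped between genotypes. The 2 blood markers went opposite ways, so their sum is not read. Hba-a1 was higher on both Tslc1-/- arrays (log2 change 0.75, limma, adjusted p = 0.144), and Alas2 was lower on both (-0.53, adjusted p = 0.475). The part of spermatids or of any other cell type in the Bag1 signal was not tested.

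Bcl2l11 encodes Bim, a BH3-only protein that binds all the survival members studied here, and was named after its values were seen. Its probe set 99418_at read 392.1 and 140.8 in Tslc1-/- testis, against 753.2 and 692.6 in Tslc1+/+ testis. Both Tslc1-/- arrays were lower, though 2.78-fold apart. The log2 change was -1.41 (standard error 0.43) and did not pass (limma, adjusted p = 0.232). A second tested Bcl2l11 probe set read 749.4 and 544.7 in Tslc1-/- testis, against 652 and 797.1 in Tslc1+/+ testis, with overlapping genotypes and a change of -0.16, and the third was dim, with a change of -0.31.

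Among the other caspases, 3 probe sets of 2 genes were tested, and the 3 changes ran from -0.46 to 0.60. Casp2, a caspase that acts after DNA damage, was both the brightest and the one with the smallest p, at 689.6 and 718.2 in Tslc1-/- testis, against 706.2 and 1370.9 in Tslc1+/+ testis (limma, adjusted p = 0.675). A single high Tslc1+/+ array set its change of -0.46, which was -0.0047 without that array. Its other tested probe set, with a cross-hybridisation suffix, had a change of 0.60. It was tested only through its Tslc1-/- signals, with means of 262.9 in Tslc1-/- testis and 185.9 in Tslc1+/+ testis, and the changes of the 2 remaining caspase probe sets were both negative. Of the other listed caspases, Casp1, Casp4, Casp8 and Casp12 were below the signal filter.

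The apoptosome, inhibitors of apoptosis and mitochondrial factors had 13 tested probe sets of 11 genes, 7 with a positive and 6 with a negative change and a median of 0.03. The brightest was that of Htra2, a mitochondrial protease that counters inhibitors of apoptosis once released, at 6245.9 and 6192.1 in Tslc1-/- testis, against 6545.8 and 5632.7 in Tslc1+/+ testis, a change of 0.03 (limma, adjusted p = 0.958). This probe set carries a suffix for probes that may be less specific, and the other Htra2 probe set had a change of -0.54. The smallest p was that of Aifm1, a mitochondrial flavoprotein that moves to the nucleus in dying cells, at 839.2 and 843.1 in Tslc1-/- testis, against 1081.4 and 1194.6 in Tslc1+/+ testis. Both Tslc1-/- arrays were lower, by 0.41 ± 0.21 (SE) on the log2 scale, which did not pass (limma, adjusted p = 0.558).

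Death receptors and adaptors had 8 tested probe sets of 7 genes, 3 with a positive and 5 with a negative change and a median of -0.11. Daxx, a nuclear protein that also binds the receptor Fas, was the brightest, at 4331.2 and 3658.9 in Tslc1-/- testis, against 3624.3 and 3692.6 in Tslc1+/+ testis (log2 change 0.12, limma, adjusted p = 0.813). The receptor gene for tumour necrosis factor, Tnfrsf1a, had the smallest p, on 161194_r_at (log2 change -0.59, limma, adjusted p = 0.729). This probe set carries a suffix for probes that may be less specific. It read 314.2 and 195.2 in Tslc1-/- testis, against 370.7 and 429.6 in Tslc1+/+ testis. The second Tnfrsf1a probe set had a change of -0.24, with overlapping genotypes. Fas and its ligand gene Fasl were both below the signal filter.

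The p53 axis had 10 tested probe sets of 8 genes, 6 with a positive and 4 with a negative change and a median of 0.04. Mdm2, the ubiquitin ligase that limits p53, was the brightest, at 1797.3 and 2700.1 in Tslc1-/- testis, against 1951.9 and 2403.1 in Tslc1+/+ testis (log2 change 0.02, limma, adjusted p = 0.983). Trp53bp1, which acts at DNA breaks, had the smallest p, at 846.3 and 1004.5 in Tslc1-/- testis, against 1117.8 and 1192.9 in Tslc1+/+ testis (log2 change -0.31, limma, adjusted p = 0.686). Death substrates and nucleases had 10 tested probe sets of 6 genes, 7 with a positive and 3 with a negative change and a median of 0.13. Lmna, a nuclear lamin gene whose protein Casp6 cuts, was the brightest, at 1820.1 and 1690.9 in Tslc1-/- testis, against 1482.3 and 1609.7 in Tslc1+/+ testis (log2 change 0.18, limma, adjusted p = 0.788). Dffa, which encodes the inhibitor of the nuclease that cuts DNA in dying cells, had the smallest p, at 158.4 and 791.5 in Tslc1-/- testis, against 934.9 and 768.4 in Tslc1+/+ testis. Its change of -1.10 (limma, adjusted p = 0.533) was set by Tslc1-/- replicate 1 and was -0.093 without that array.

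**Figure D4:**
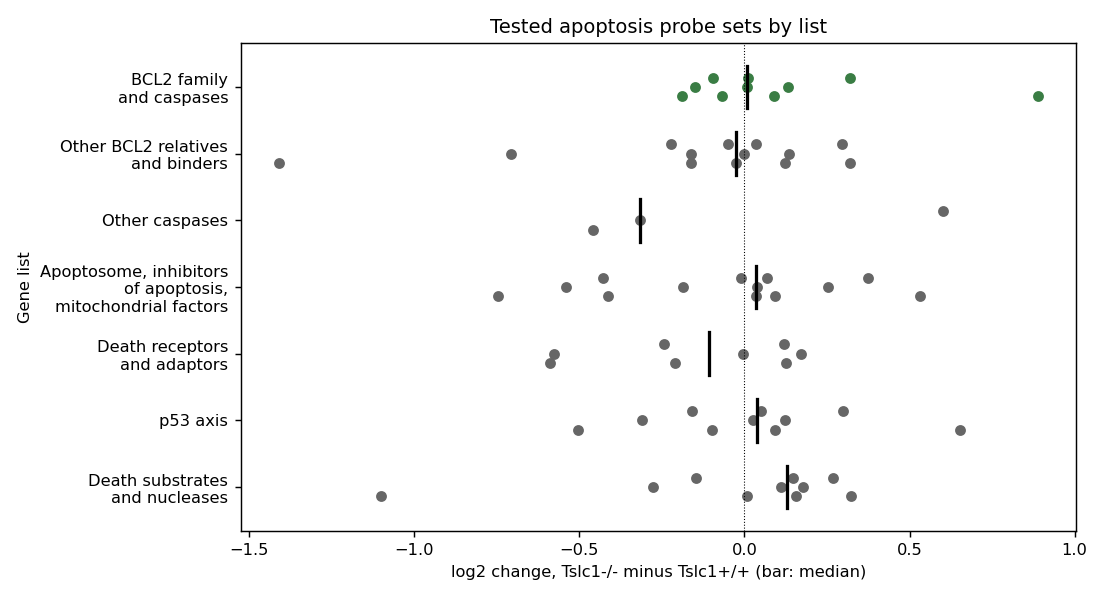
Log2 change, Tslc1-/- minus Tslc1+/+, of each tested probe set (points) of the BCL2 family and caspases (green) and of 6 other apoptosis lists (grey), with a bar at each list's median. Medians run from -0.32 for the other caspases, with 3 probe sets, to 0.13 for death substrates and nucleases, and none of the points passed the test.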

How the data were processed

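The authors obtained signals from Affymetrix Microarray Suite 5.0 (MAS5) with global scaling to a target of 1000, per the labels' design text. The deposited values are intensity on a linear scale, with a mean after trimming 2% from each end of 1001 on each array. Such scaling hides a change in total RNA. Detection calls were not used here, and a genome build is not given in the sources used here.

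Gene names came from the platform annotation, updated by Entrez identifier against RefSeq genes of GRCm38.p6 (10817 of 10833 probe sets with 1 gene matched; 396 had several and 1193 none). Of 12488 probe sets, 66 were controls and were left out. Signals were used as log2(signal + 50) over the 7975 probe sets with a mean signal of at least 200, and the whole table was fitted in R 4.3.3 by limma 3.58.1, with lmFit and an eBayes step whose prior follows intensity, two-sided, Benjamini-Hochberg adjusted, threshold 0.05. Dim members take values from the same fit of all 12422. The fit was tested on simulated data.

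The members and lists were chosen with earlier results of these data known. All probe sets of the members are named, and from each other list any called probe set, the brightest and the one with the smallest p. The alternatives were another pseudocount (16 or 100), another signal filter (none or 500), quantile or median normalization, no trend, no suffixed probe sets, a replicate block, and each array left out. The number of arrays limits the precision, since with 2 against 2 the smallest two-sided permutation p is 0.333.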

Additional observations from a re-analysis of the deposited data

How the results depend on the processing

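None of the 13 alternatives called a member probe set (limma). Bcl2l1 on 99027_at kept a change of 0.30 to 0.35 under all of them, with adjusted p from 0.226 to 0.691. Over all probe sets the count of calls was 86, against 0 without the intensity trend (638 at an unadjusted p under 0.05), 239 with the replicate block and 37 to 43 with 1 array left out. Same-numbered arrays share only a number: their deviations from the genotype means correlated at -0.0012. Of the other apoptosis probe sets, 0 were called, against 1, Bag1, with the replicate block, 1 over probe sets with no suffix, and 0 to 1 with 1 array left out. Signs turned in 20 of 179 member values, none past the threshold. With quantile normalization Bak1 stood at -0.022 and Casp9 on 100367_g_at at -0.0063, and with equal medians they stood at -0.010 and -0.013. With 1 array left out, changes ran from -0.24 to 0.10 for Bcl2 on 98870_at, -1.19 to 0.32 on 98868_at, -0.21 to 0.23 for Bak1, -0.088 to 0.26 for Bad on 99670_at, -0.084 to 0.73 for Bid, -0.65 to 0.35 for Casp6, -0.25 to 0.061 for Casp9 on 100366_at, -0.52 to 0.53 on 100367_g_at, -0.51 to 0.13 on 103711_at, -0.99 to 1.19 on 100368_at, -0.073 to 0.14 for Htra2 and -0.26 to 0.31 for Mdm2. The cause was not tested. Dim probe sets limit what can be said of Bid and Casp6.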
